A study of Mus musculus with 11 samples.

Results

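The genes described here encode 10 chains of the interstitial collagens, the collagens that fill the space between cells of connective tissue. They were chosen by gene symbol, with earlier results of these data known. The members are Col1a1, Col1a2, Col3a1, Col5a1, Col5a2, Col6a1, Col6a2, Col6a3, Col12a1 and Col14a1, 10 of the 32868 gene symbols in the deposited table. Each of them had a single entry there, and all 10 passed the filter on low counts that left 9932 genes for testing. The libraries came from mouse primary neonatal lung fibroblasts that had been sorted. Of the 11 libraries, 6 were wild type (WT) and 5 were labelled PAD2KO, for loss of peptidylarginine deiminase 2, which turns arginine in proteins into citrulline. The labels name 2 batches without saying what differed between them. In batch 1 were the WT libraries 1, 3 and 4 and the PAD2KO libraries 1, 2 and 3. In batch 2 were the WT libraries 5, 6 and 7 and the PAD2KO libraries 6 and 7. The sources used here do not give the knockout allele, the strain, the age in days, the sorting gate, or which animals and cultures the libraries stand for. The p-values therefore measure the spread between these libraries only. TNF appears in the series title, but no label gives it as a treatment.

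Collagens are trimers wound from chains that each have their own gene. Types I, III and V assemble into the banded fibrils that give lung connective tissue its tensile strength, with type V inside the fibril, where it helps to set fibril diameter. Type VI, built from the chains of Col6a1, Col6a2 and Col6a3, forms beaded microfibrils close to the cell. Types XII and XIV, the products of Col12a1 and Col14a1, are FACIT collagens that sit on the surface of fibrils. Fibroblasts are the main source of all of these in the lung.

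The stretches of DNA just upstream of 3 of these genes show the range of sequence from which chains of different behaviour are transcribed. Col3a1 is shown because its mRNA differed most between batches, Col5a1 because its genotype difference changed with the batch, and Col6a3 because it passed no test. The sequences are the 200 bases before each transcription start in the RefSeq annotation of GRCm38.p6, read 5′ to 3′ on the gene's strand. RefSeq promoter entries were matched for 6 of the 10 genes. Col3a1 is at chr1:45311338-45311537 on the plus strand, Col5a1 at chr2:27886225-27886424 on the plus strand, and Col6a3 at chr1:90843972-90844171 on the minus strand. Capitals mark matches to any of 4 motifs, searched on both strands. These were CCAAT, the CCAAT box, then GGGCGG, the GC box, then TATAAA, the TATA box, and last TGANTCA, the AP-1 motif. No motif searched contains another.
Col3a1: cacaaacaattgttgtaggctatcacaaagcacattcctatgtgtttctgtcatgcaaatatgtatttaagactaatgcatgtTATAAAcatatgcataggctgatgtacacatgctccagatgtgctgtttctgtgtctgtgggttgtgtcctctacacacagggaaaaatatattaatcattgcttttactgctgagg
Col5a1: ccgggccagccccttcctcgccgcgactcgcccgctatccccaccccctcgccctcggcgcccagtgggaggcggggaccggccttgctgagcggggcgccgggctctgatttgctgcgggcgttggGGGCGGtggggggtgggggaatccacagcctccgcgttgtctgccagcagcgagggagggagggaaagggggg
Col6a3: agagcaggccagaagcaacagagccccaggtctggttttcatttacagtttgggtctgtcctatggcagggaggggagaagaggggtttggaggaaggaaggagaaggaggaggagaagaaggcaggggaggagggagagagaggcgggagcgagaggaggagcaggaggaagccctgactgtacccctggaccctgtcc
Col3a1 held 1 match, TATAAA at positions -117 to -112 from the start, a motif found in 9.96% of 32851 promoter entries of the same length. The Col5a1 stretch is rich in G and C and held GGGCGG at -73 to -68, a motif found in 31.0% of entries. Col6a3 held none of the 4, where CCAAT was found in 29.3% of entries and TGANTCA in 5.48%. A match is a description of letters, and these data do not bear on the binding of any factor. In the order of protein-coding genes in the reference annotation used here, Col3a1 and Col5a2 are next to each other on chromosome 1. Col6a1 and Col6a2 are neighbours on chromosome 10.

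Values are CPM, shares of the counts assigned to named genes, scaled by the TMM method so that libraries can be compared, and errors are SDs over libraries. Levels of different genes are compared only as TPM, which corrects for transcript length. Named genes received 962633 to 1421243 counts per library. The members took 1.46 ± 0.198% of them in WT of batch 1 (n = 3) and 1.26 ± 0.0925% in PAD2KO of batch 1 (n = 3). In batch 2 they took 0.475 ± 0.0246% in WT (n = 3) and 0.481 ± 0.0219% in PAD2KO (n = 2). Padi2, the gene of the missing enzyme, had 0 to 4 counts in every library, with the 4 counts in PAD2KO 3 and PAD2KO 7, so it could not check the genotype labels. Fibroblast markers (Pdgfra, Pdgfrb, Thy1, Vim, Dcn, Lum, Tcf21 and Cdh11) summed to 2847 to 3630 CPM in every library, and 7 of these 8 were detected in all of them. Vim made up 1305 to 2182 CPM of that sum, which hides changes of single markers. From batch 1 to batch 2 in WT, Cdh11 fell from 217 ± 14.9 to 126 ± 16.1 CPM. In PAD2KO, Dcn fell from 465 ± 83.0 to 191 ± 69.2 CPM, while Vim rose from 1361 ± 60.4 to 1925 ± 364 CPM and Thy1 from 67.8 ± 13.6 to 125 ± 9.09 CPM. Tcf21, a transcription factor of lung fibroblasts, had 6 to 23 counts in the batch 1 libraries, 0 in WT 6, WT 7 and PAD2KO 6, and 4 and 2 in WT 5 and PAD2KO 7. It was called lower in batch 2 in both genotypes (adjusted p = 0.00318 in WT and 0.0107 in PAD2KO).

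Markers of other cells differed widely in their sums. Endothelial markers summed to 1.57 to 12.7 CPM, and epithelial markers to 12.4 to 41.3 CPM with 3 of 8 at 0 in every library. Pericyte markers summed to 168 to 294 CPM and cartilage markers to 7.10 to 54.0 CPM, with 2 of 5 cartilage markers at 0 in every library. WT 7 stood apart in the sum of 7 immune markers, which was 227 CPM there and 15.9 to 75.3 CPM in the other libraries. Lyz2, a lysozyme of macrophages, made up 162 CPM of that sum, and Adgre1, a macrophage surface receptor, 44.5 CPM. Other markers of the list did not stand out in WT 7. Cd68 was at 4.24 CPM and Csf1r at 12.7 CPM, against 7.84 and 14.1 CPM in WT 6, and Ptprc had 2 counts. The 6 markers of myofibroblasts and smooth muscle summed to 7152 to 7797 CPM in WT and 5365 to 8395 CPM in PAD2KO of batch 1. In batch 2 they summed to 1583 to 2069 CPM in WT and to 4393 and 5658 CPM in PAD2KO 6 and PAD2KO 7. Mesothelial markers summed to 89.6 to 344 CPM in batch 1 and 49.4 to 89.9 CPM in batch 2. The share of these cells in the results below was not tested, and in bulk RNA fewer cells of a type and less RNA per cell cannot be told apart.

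**Figure D1:**
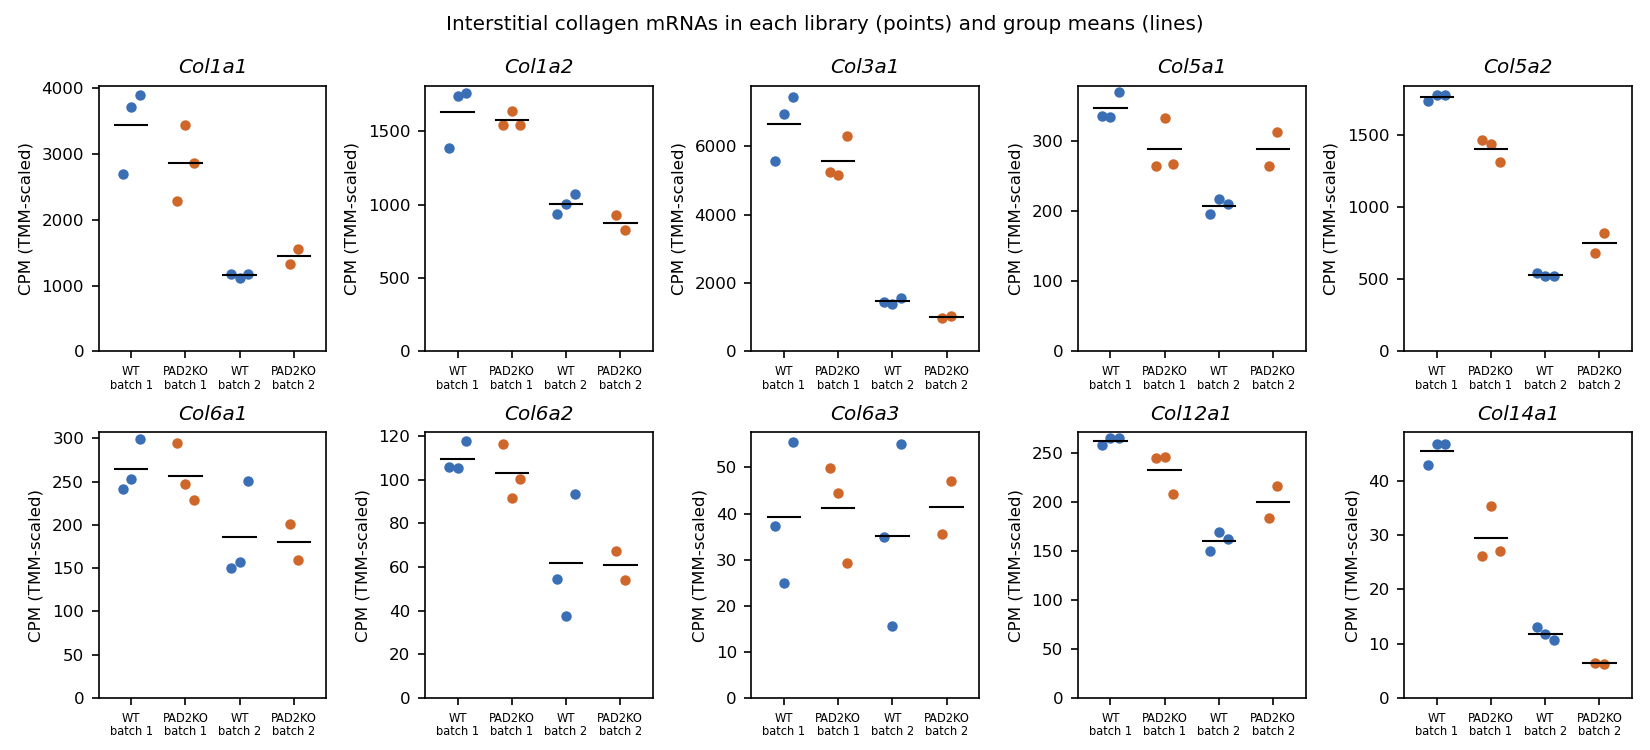
Level of each of the 10 mRNAs (vertical axes: CPM, TMM-scaled, from 0) in every library, by genotype and batch. Points are libraries and lines are group means. Col3a1 lies at 5162 to 7436 CPM in batch 1 and 967 to 1569 CPM in batch 2, while Col6a3 spreads over 15.7 to 55.6 CPM with no such step.

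The chains differed widely in abundance. By median TPM over the 11 libraries the order was Col3a1 at 1445, Col1a1 at 479, Col1a2 at 346, Col5a2 at 267, Col5a1 at 126, Col6a1 at 75.1, Col12a1 at 43.7, Col6a2 at 31.0, Col6a3 at 6.23 and Col14a1 at 5.48. The ranges of neighbours in this order overlapped at every step, from 285 to 2167 TPM for Col3a1 against 223 to 885 TPM for Col1a1, down to 2.05 to 20.8 TPM for Col6a3 against 1.17 to 12.9 TPM for Col14a1. TPM of the low chains carries a further limit. The deposited effective length of Col6a3 lay between 2620 and 8795 bases in different libraries, and Col12a1 and Col14a1 varied from 5135 to 10578 and from 2277 to 6219 bases. Col5a1 was given 2541 to 2950 bases, beside 6143 to 6393 bases for Col5a2. The place of Col5a1 in this order and the level of its ratio to Col5a2 rest on these lengths. Col3a1 alone held 51.9 ± 1.04% of the members' summed TPM in WT of batch 1 (n = 3) and 35.4 ± 1.69% in WT of batch 2 (n = 3). In PAD2KO it held 50.7 ± 5.20% (n = 3) and 25.1 ± 2.35% (n = 2).

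Most interstitial collagen mRNAs were lower in batch 2 than in batch 1, in both genotypes. In WT, 9 of the 10 were called lower and none higher at an adjusted p under 0.05 (edgeR's quasi-likelihood test with Benjamini-Hochberg adjustment over 9932 genes). Over all genes tested, 10.6% were called lower in that comparison and 22.3% in either direction. The members' median log2 difference was -0.80, beside -0.00398 over all genes. In PAD2KO, 6 of the 10 were called lower, against 9.13% of all genes lower and 18.7% in either direction. Their median there was -0.80, beside -0.0166 over all genes. The WT and PAD2KO comparisons contrast different libraries. Both came from the same fit, with the spread estimated over all 11 libraries, so their tests are not independent.

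Col3a1, the single chain of type III collagen, showed the largest fall. It measured 5573, 6945 and 7436 CPM in WT 1, WT 3 and WT 4, and 1436, 1383 and 1569 CPM in WT 5, WT 6 and WT 7. In PAD2KO it measured 5246, 5162 and 6295 CPM in batch 1 and 967 and 1031 CPM in batch 2. Every batch 1 library was thus above every batch 2 library, in each genotype. The fall was 4.55-fold in WT (log2 -2.19, SE 0.112, adjusted p = 1.22e-14) and 5.57-fold in PAD2KO (log2 -2.48, SE 0.132, adjusted p = 1.17e-13). By p-value it ranked 9 of the 9932 genes in WT and 3 in PAD2KO.

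The chains of type I collagen, the main protein of fibrils, fell less. Col1a1, its α1 chain, measured 2696, 3712 and 3890 CPM in WT of batch 1 and 1171, 1110 and 1179 CPM in WT of batch 2. In PAD2KO it measured 2278, 3438 and 2864 CPM in batch 1 and 1333 and 1561 CPM in batch 2. The batches did not overlap in either genotype, and batch 1 spread more widely than batch 2. The fall was 2.98-fold in WT (log2 -1.57, SE 0.149, adjusted p = 5.93e-07) and 1.98-fold in PAD2KO (log2 -0.98, SE 0.168, adjusted p = 0.000528). Col1a2, the α2 chain, measured 1383, 1742 and 1761 CPM in WT of batch 1 and 939, 1004 and 1071 CPM in WT of batch 2. Its PAD2KO values were 1545, 1637 and 1541 CPM in batch 1 and 927 and 825 CPM in batch 2, again without overlap. The fall was 1.62-fold in WT (log2 -0.70, SE 0.104, adjusted p = 7.83e-06) and 1.80-fold in PAD2KO (log2 -0.85, SE 0.119, adjusted p = 6.60e-06).

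The chains of type V collagen were the only members whose genotype difference was called as changing between batches in the main fit. Col5a2 measured 1740, 1781 and 1778 CPM in WT of batch 1 and 544, 527 and 525 CPM in WT of batch 2. In PAD2KO it measured 1471, 1438 and 1318 CPM in batch 1 and 686 and 822 CPM in batch 2. In batch 1 all PAD2KO libraries lay below all WT libraries, and in batch 2 both lay above. Between batches Col5a2 fell 3.32-fold in WT (log2 -1.73, SE 0.0996, adjusted p = 1.41e-13) and 1.87-fold in PAD2KO (log2 -0.90, SE 0.111, adjusted p = 9.09e-07). Col5a1 measured 335, 334 and 369 CPM in WT of batch 1 and 195, 217 and 210 CPM in WT of batch 2. Its PAD2KO values were 264, 332 and 267 CPM in batch 1 and 264 and 313 CPM in batch 2. Col5a1 fell 1.67-fold in WT (log2 -0.74, SE 0.115, adjusted p = 1.41e-05), with no overlap between batches. In PAD2KO the batches overlapped, and the log2 difference was 0.00 (95% interval -0.24 to 0.25, adjusted p = 0.992).

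Of the type VI chains, Col6a1 and Col6a2 were lower in batch 2 and Col6a3 was not called. Col6a1 measured 241, 253 and 299 CPM in WT of batch 1 and 150, 157 and 251 CPM in WT of batch 2, where WT 7 gave the 251. Its PAD2KO values were 295, 247 and 228 CPM in batch 1 and 201 and 159 CPM in batch 2. WT 7 overlapped batch 1 while the other batch 2 libraries did not. The WT difference was -0.52 on the log2 scale (SE 0.174, adjusted p = 0.0411), and without WT 7, the library high in Lyz2 and Adgre1, it was -0.78 (adjusted p = 8.29e-05). The call was lost without WT 1, WT 3, WT 4, WT 5 or WT 6 (log2 -0.59, -0.56, -0.43, -0.39 and -0.42, adjusted p = 0.0564, 0.0732, 0.144, 0.147 and 0.15), without PAD2KO 2 (adjusted p = 0.0600) and with lengths in the fit (adjusted p = 0.0938). In PAD2KO the difference was -0.51 (SE 0.196, adjusted p = 0.0851) and was not called, but it was without WT 7 (adjusted p = 0.00789). Col6a2 measured 106, 105 and 118 CPM in WT of batch 1 and 54.6, 37.6 and 93.2 CPM in WT of batch 2, with WT 7 again the highest of batch 2. Its PAD2KO values were 116, 91.7 and 100 CPM in batch 1 and 67.2 and 54.1 CPM in batch 2, without overlap. It fell by 0.87 on the log2 scale in WT (SE 0.222, adjusted p = 0.00935) and by 0.76 in PAD2KO (SE 0.249, adjusted p = 0.0454). Without WT 7 the WT value was -1.23 (adjusted p = 3.48e-06), and without WT 5 it was -0.79 and not called (adjusted p = 0.0514). The PAD2KO call held in 8 of 18 alternatives. It was lost without PAD2KO 1, 2, 3, 6 or 7 (log2 -0.92 to -0.61, adjusted p of 0.0539 to 0.278), without WT 1, 3, 4 or 5 (adjusted p of 0.0604 to 0.0671) and with lengths in the fit (adjusted p = 0.111).

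Col6a3, the longest chain of type VI and the one with the fewest counts among its chains, was scattered within every group. It measured 37.4, 24.8 and 55.6 CPM in WT of batch 1 and 35.0, 15.7 and 55.1 CPM in WT of batch 2. In PAD2KO it measured 49.9, 44.4 and 29.3 CPM in batch 1 and 35.6 and 47.0 CPM in batch 2. These values rest on 20 to 70 counts a library, and all groups overlapped. The log2 difference between batches was -0.20 in WT (95% interval -1.03 to 0.64, adjusted p = 0.808) and 0.01 in PAD2KO (95% interval -0.88 to 0.90, adjusted p = 0.992), intervals wide enough to hold the falls of Col6a1 and Col6a2.

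The FACIT chains went apart in size. Col14a1 measured 42.8, 46.9 and 46.9 CPM in WT of batch 1 and 13.1, 11.8 and 10.6 CPM in WT of batch 2. In PAD2KO it measured 26.1, 35.4 and 27.1 CPM in batch 1 and 6.48 and 6.27 CPM in batch 2, the last 2 from 8 counts each. The batches did not overlap, and within each batch every PAD2KO library was below every WT library. Col14a1 fell 3.79-fold in WT (log2 -1.92, SE 0.236, adjusted p = 3.63e-07) and 4.60-fold in PAD2KO (log2 -2.20, SE 0.321, adjusted p = 1.13e-05). Col12a1 measured 258, 266 and 265 CPM in WT of batch 1 and 150, 169 and 162 CPM in WT of batch 2. Its PAD2KO values were 245, 246 and 208 CPM in batch 1 and 184 and 216 CPM in batch 2, where PAD2KO 7 overlapped batch 1. It fell 1.64-fold in WT (log2 -0.71, SE 0.113, adjusted p = 1.97e-05), and the log2 difference was -1.14 when the deposited lengths entered the fit. In PAD2KO its difference was -0.22 (SE 0.125, adjusted p = 0.242).

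**Figure D2:**
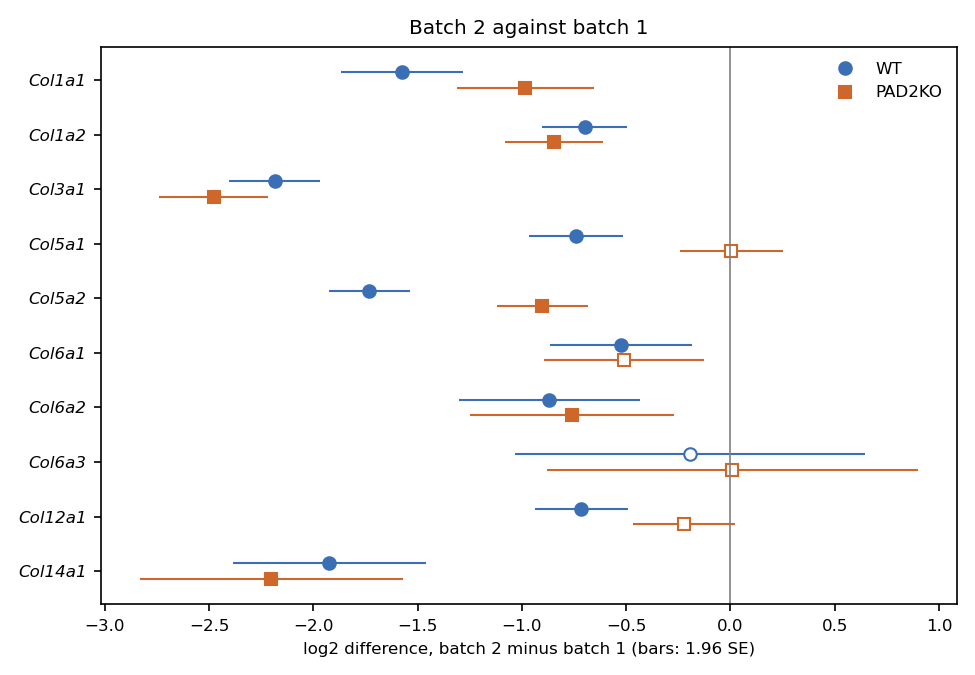
Log2 difference between batches (horizontal axis: batch 2 minus batch 1) of each mRNA in WT (blue circles) and PAD2KO (orange squares), with bars of 1.96 SE. Filled symbols are called, 9 in WT and 6 in PAD2KO. The blue and orange symbols of Col5a1 and Col5a2 lie apart, at -0.74 against 0.00 and at -1.73 against -0.90.

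Of 4 ratios between chains of the same collagen type, 2 differed between batches. The ratio of Col5a1 to Col5a2 in TPM was 0.460, 0.410 and 0.453 in WT of batch 1 and 0.790, 0.896 and 1.00 in WT of batch 2. In PAD2KO it was 0.446, 0.552 and 0.473 in batch 1 and 0.827 and 0.950 in batch 2. All batch 2 libraries were above all batch 1 libraries, and the ratio was 1.92-fold higher in batch 2 (log2 0.94, exact two-sided permutation within genotypes, p = 0.005, adjusted p = 0.02 over 8 tests). That p is the smallest that 200 splits allow. The ratio of Col6a1 to Col6a2 was also higher in batch 2, with means of 3.14 ± 0.822 in WT (n = 3) and 2.94 ± 0.0617 in PAD2KO (n = 2). Its batch 1 means were 2.35 ± 0.133 in WT and 2.44 ± 0.191 in PAD2KO (n = 3 each). The log2 difference was 0.33 (exact permutation p = 0.005, adjusted p = 0.02), and WT 6, with a ratio of 4.09, gave the largest part of the spread.

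The ratio of Col1a1 to Col1a2 was lower in batch 2 by an amount that did not pass the adjusted test. It was 1.67, 1.85 and 1.95 in WT of batch 1 and 1.10, 0.980 and 0.937 in WT of batch 2, so that WT did not overlap. PAD2KO gave 1.32, 1.88 and 1.68 in batch 1 and 1.26 and 1.77 in batch 2, which did overlap. The log2 difference was -0.48 (exact permutation p = 0.035, adjusted p = 0.0933). The ratio of Col6a3 to Col6a1 ran from 0.0433 to 0.344 without order between batches (log2 0.22, exact permutation p = 0.725, adjusted p = 0.967). By genotype, over both batches, none of the 4 ratios passed the test, with log2 differences of 0.20, 0.07, -0.00549 and 0.02 for Col1a1 to Col1a2, Col5a1 to Col5a2, Col6a1 to Col6a2 and Col6a3 to Col6a1 (exact permutation, adjusted p of 0.680 to 0.985). For Col1a1 to Col1a2 the batches went opposite ways. The mean was 1.62 ± 0.283 in PAD2KO against 1.82 ± 0.139 in WT in batch 1 (n = 3 each), and 1.51 ± 0.359 (n = 2) against 1.00 ± 0.0833 (n = 3) in batch 2, where both PAD2KO libraries were above all WT libraries. That change of direction was not tested.

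**Figure D3:**
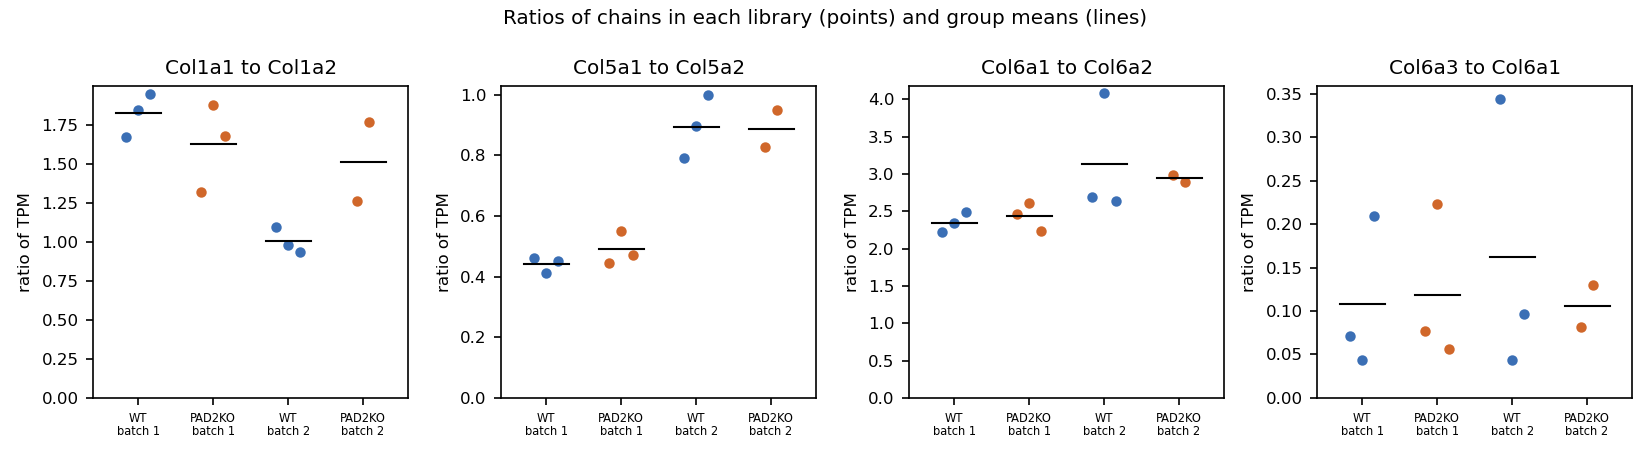
Ratio of TPM between chains of the same collagen type (vertical axes, from 0) in every library, by genotype and batch, with lines at group means. For Col5a1 to Col5a2 the batch 1 libraries lie at 0.410 to 0.552 and the batch 2 libraries at 0.790 to 1.00.

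Between genotypes, no member passed the test when the 11 libraries were fitted together with batch as a term. The count was 0 of 10 by edgeR and 0 by DESeq2, where 0.191% of all genes were called by edgeR. At an unadjusted p under 0.05 were 2 members, and the share of all genes at that threshold was not counted. Those 2 were Col3a1, at -0.38 on the log2 scale (SE 0.0940, adjusted p = 0.147), and Col14a1, at -0.68 (SE 0.172, adjusted p = 0.165). By p-value they ranked 28 and 37 of the 9932 genes. Without WT 1, Col3a1 was called at -0.46 (adjusted p = 0.0205). The other 8 log2 differences lay between -0.11 and 0.16.

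In batch 1 alone the count was again 0 of 10 by edgeR and by DESeq2, where 0.131% of all genes were called. The members' median log2 difference was -0.21, beside -0.00110 over all genes, and 9 of 10 values were negative. At an unadjusted p under 0.05 were 4 of them, a threshold at which the share of all genes was not counted. By p-value Col5a2 ranked 67, Col14a1 105, Col3a1 282 and Col5a1 296 of the 9932 genes. Col14a1 was at -0.62 (SE 0.198, adjusted p = 0.405), Col5a2 at -0.33 (SE 0.0956, adjusted p = 0.293), Col5a1 at -0.27 (SE 0.112, adjusted p = 0.805) and Col3a1 at -0.26 (SE 0.106, adjusted p = 0.803). Col1a1 had a like value, -0.26 (SE 0.145, adjusted p = 0.920), with overlapping groups.

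In batch 2 alone, 3 of 10 members were called, against 3.11% of all genes. The fibril chain Col3a1 was 1.46-fold lower in PAD2KO (log2 -0.55, SE 0.123, adjusted p = 0.00916), and both PAD2KO libraries were below the 3 WT libraries. The type V chains were higher, Col5a1 by 1.39-fold (log2 0.48, SE 0.128, adjusted p = 0.0336) and Col5a2 by 1.42-fold (log2 0.50, SE 0.109, adjusted p = 0.00678), with both PAD2KO libraries above the 3 WT libraries for each. Without PAD2KO 7 the log2 differences were -0.60, 0.35 and 0.37 for Col3a1, Col5a1 and Col5a2, and none of the 3 was called (adjusted p = 0.110, 0.532 and 0.358). Without PAD2KO 6 they were -0.50, 0.59 and 0.63, and Col3a1 was not called (adjusted p = 0.0855). Either omission leaves 1 PAD2KO library in batch 2, assumed to vary as the other groups do. Col5a1 was called in 10 of 19 alternatives. It was also lost by DESeq2 (adjusted p = 0.0525), with batch 2 fitted alone (adjusted p = 0.0517) and without WT 3, WT 5, WT 6 or WT 7 (adjusted p = 0.0550, 0.125, 0.0617 and 0.0583). With lengths in the fit neither Col5a1 nor Col3a1 was called (adjusted p = 0.195 and 0.180), while Col5a2 was (adjusted p = 0.0317).

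The same batch 2 groups also differed in markers of contractile cells. The markers of myofibroblasts and smooth muscle were higher in PAD2KO 6 and PAD2KO 7, at 4393 and 5658 CPM, than in the WT libraries, at 1583 to 2069 CPM. PAD2KO 7 was the higher of the 2 in these markers. It was also the higher in 6 members (Col1a1, Col3a1, Col5a1, Col5a2, Col6a3 and Col12a1) and the lower in the other 4 (Col1a2, Col6a1, Col6a2 and Col14a1). Their part in the collagen differences was not tested. Col12a1 was at 0.32 (SE 0.128, adjusted p = 0.211), and at 0.76 and called when lengths entered the fit (adjusted p = 0.0373). Col1a1 was at 0.33 (SE 0.163, adjusted p = 0.385) and Col14a1 at -0.90 (SE 0.376, adjusted p = 0.245). The remaining 4 members, Col1a2 and the type VI chains, lay between -0.20 and 0.28 and were not called.

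**Figure D4:**
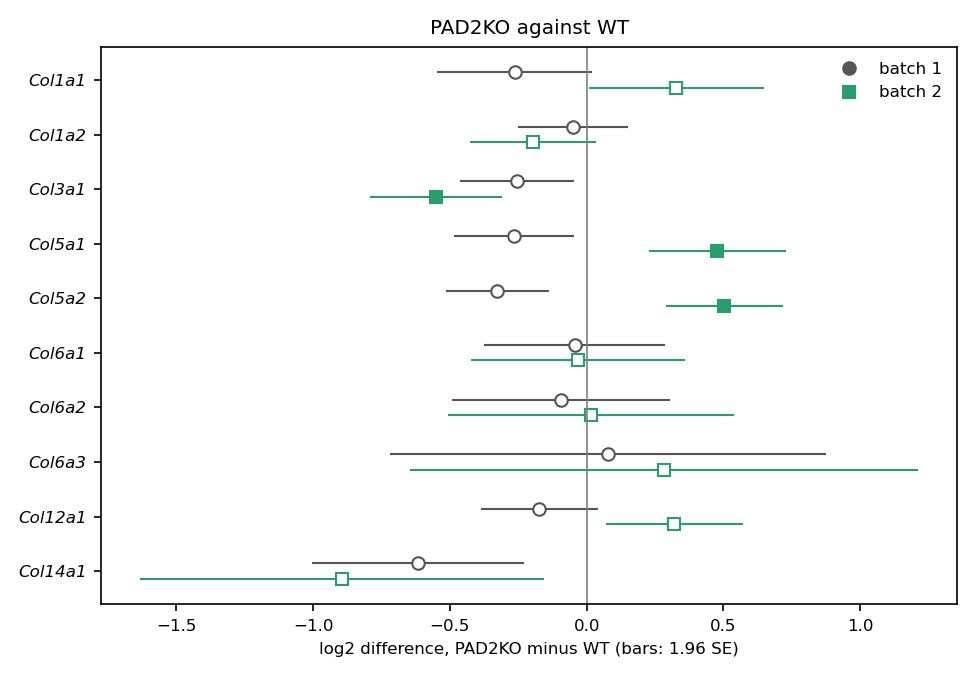
Log2 difference between genotypes (horizontal axis: PAD2KO minus WT) of each mRNA in batch 1 (grey circles) and batch 2 (green squares), with bars of 1.96 SE. Filled symbols are called. Col5a1 goes from -0.27 to 0.48 and Col5a2 from -0.33 to 0.50, while Col3a1 is negative in both batches, at -0.26 and -0.55.

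The test of the difference between batches in the genotype effect called 2 of 10 members, where 1.62% of all genes were called. These were the chains of type V collagen. Col5a2 differed by 0.83 on the log2 scale (SE 0.145, adjusted p = 0.00151) and Col5a1 by 0.74 (SE 0.170, adjusted p = 0.0182). The same numbers are the amount by which the fall between batches was smaller in PAD2KO than in WT. Without PAD2KO 7 the values were 0.69 for Col5a2 and 0.62 for Col5a1, and neither was called (adjusted p = 0.0556 and 0.227). The call of Col5a1 was also lost when WT 5, PAD2KO 1 or PAD2KO 3 was left out (adjusted p = 0.0552, 0.0505 and 0.0576) or when lengths entered the fit (0.69, adjusted p = 0.261). For the other fibril chains the differences were 0.59 for Col1a1 (SE 0.218, adjusted p = 0.254, and 0.0410 without WT 1), -0.15 for Col1a2 (SE 0.156, adjusted p = 0.789) and -0.29 for Col3a1 (SE 0.162, adjusted p = 0.504). Col12a1 was at 0.49 (SE 0.168, adjusted p = 0.168), and the remaining 4 lay between -0.28 and 0.21. The same test also called genes of the lists described below. These included 2 of the 12 other collagen genes tested, Itga1 (1.69), Itgb1 (1.02), Thbs1 (1.02), Sparc (0.67) and, in the other direction, Timp1 (-0.74). A change with batch was thus not particular to the type V chains.

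The other collagen genes of the table, 34 symbols of which 12 passed the filter, did not share a direction between batches. In WT, 4 of the 12 were called higher and 5 lower, with a median of -0.16, where 22.3% of all genes were called in either direction. In PAD2KO, 2 were called higher and 2 lower, with a median of 0.30, where 18.7% of all genes were called. Col13a1, a collagen anchored in the plasma membrane, rose by 2.77 in WT and 2.93 in PAD2KO on the log2 scale (SE 0.429 and 0.490, adjusted p = 4.12e-05 and 0.000168). Col7a1, which forms anchoring fibrils below epithelia, rose from 18.0 ± 4.68 to 54.9 ± 8.66 CPM in WT and from 21.9 ± 4.66 to 55.8 ± 2.42 CPM in PAD2KO (adjusted p = 2.51e-06 and 0.000113). Col4a5, a basement membrane chain, fell by 1.34 and 0.89 (adjusted p = 4.73e-05 and 0.0149). Col28a1 had 55 counts in WT of batch 1 and 0 in WT of batch 2. Against a limit of 3 counts over the group, it was at least 16.9-fold lower. Between genotypes in batch 2, the main basement membrane chains Col4a1 and Col4a2 were higher in PAD2KO by 0.94 and 1.01 (SE 0.157 and 0.159, adjusted p = 0.00132 and 0.000822), and no other collagen gene outside the members was called.

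Enzymes that modify and fold chains before export went both ways. Of 20 genes 18 were tested, and in WT 4 were called higher and 2 lower in batch 2, where 22.3% of all genes were called. Their log2 differences ran from -2.58 to 0.82, with a median of -0.0286. P4ha3, a subunit of a prolyl hydroxylase, fell from 25.4 ± 5.69 to 4.05 ± 1.54 CPM in WT (log2 -2.58, adjusted p = 7.31e-06). Hspa5, a chaperone of the endoplasmic reticulum, rose from 753 ± 60.6 to 1111 ± 93.0 CPM (log2 0.56, adjusted p = 9.04e-05). P4ha2, another prolyl hydroxylase subunit, rose from 49.9 ± 5.59 to 89.5 ± 19.7 CPM in WT (log2 0.82, adjusted p = 0.000541). It was not called between batches in PAD2KO (log2 0.25, adjusted p = 0.375). In PAD2KO, 3 were called higher and 1 lower between batches, where 18.7% of all genes were called. Colgalt1, which adds galactose to hydroxylysine, was the only one called between genotypes, higher in PAD2KO by 0.47 on the log2 scale in batch 2 (SE 0.123, adjusted p = 0.0295).

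Genes for export, propeptide removal and crosslinking held some of the clearest falls. Of 21 genes 18 were tested, and in WT 7 were called lower and 1 higher, with a median of -0.0285. In PAD2KO, 6 were called lower and 3 higher. Beside these, 10.6% of all genes were called lower and 22.3% in either direction in WT. The shares in PAD2KO were 9.13% and 18.7%. Lox, the enzyme that starts crosslinks between collagen molecules, fell from 588 ± 32.1 to 141 ± 6.57 CPM in WT (log2 -2.06, SE 0.107, adjusted p = 1.40e-14) and from 440 ± 11.1 to 118 ± 11.8 CPM in PAD2KO. Tgm2, a transglutaminase that crosslinks matrix proteins, fell from 271 ± 33.3 to 64.0 ± 9.54 CPM in WT (log2 -2.06, adjusted p = 4.56e-12). Adamts2, which removes the amino-terminal propeptides of fibrillar procollagens, fell from 200 ± 11.4 to 85.8 ± 1.68 CPM (log2 -1.22, adjusted p = 1.87e-08). Loxl2, a relative of Lox, was called between genotypes in batch 2, at 338 ± 48.4 CPM in PAD2KO against 246 ± 22.3 CPM in WT (adjusted p = 0.0369), and its genotype difference differed between batches by 0.63 (adjusted p = 0.0432).

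Proteins that bind fibrils leaned lower in batch 2. Of 17 genes 12 were tested, and in WT 6 were called lower and none higher, with a median of -0.51. In PAD2KO, 5 were called lower and 1 higher. The shares of all genes called lower were 10.6% in WT and 9.13% in PAD2KO, and in either direction 22.3% and 18.7%. Fbn1, the microfibril protein fibrillin-1, fell from 663 ± 34.5 to 333 ± 24.0 CPM in WT (log2 -0.99, adjusted p = 1.55e-08). Thbs1, thrombospondin 1, fell by 1.07 in WT (adjusted p = 2.75e-08), and Sparc, a collagen-binding protein of the matrix, by 0.89 (adjusted p = 1.61e-07). Neither was called between batches in PAD2KO (log2 -0.0572 and -0.22, adjusted p = 0.807 and 0.207). Thbs1 and Sparc were higher in PAD2KO than in WT within batch 2, by 0.80 and 0.45 (adjusted p = 0.000178 and 0.0269), as the type V chains were. Dcn, a proteoglycan that coats fibrils and also one of the fibroblast markers, was lower, at 191 ± 69.2 CPM in PAD2KO against 563 ± 81.0 CPM in WT (log2 -1.56, adjusted p = 0.00741).

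Of 13 receptor genes 9 were tested, and in WT 4 were called lower and 1 higher, with 3 in each direction in PAD2KO. Among all genes, 22.3% were called in WT and 18.7% in PAD2KO, in either direction. Itga1, the α1 subunit of a collagen-binding integrin, fell from 166 ± 23.1 to 17.4 ± 5.53 CPM in WT (log2 -3.22, SE 0.201, adjusted p = 6.64e-12). The collagen receptor kinases Ddr1 and Ddr2 fell by 1.26 and 0.90 (adjusted p = 2.40e-08 and 6.36e-07). Itga1 and its partner subunit Itgb1 were both higher in PAD2KO within batch 2, by 1.62 and 0.77 (adjusted p = 0.000311 and 0.000171).

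Of 12 genes for collagen breakdown 11 were tested, and in WT 4 were called higher and 2 lower, with 3 in each direction in PAD2KO. Among all genes, 22.3% were called in WT and 18.7% in PAD2KO, in either direction. Timp1, an inhibitor of matrix metalloproteinases, rose from 236 ± 4.06 to 583 ± 44.7 CPM in WT (log2 1.30, adjusted p = 2.49e-10). Mmp13, a collagenase, rose from 6.78 ± 2.52 to 43.3 ± 15.2 CPM (log2 2.62, adjusted p = 5.93e-06). Timp3, a matrix-bound inhibitor, fell from 708 ± 95.3 to 323 ± 83.5 CPM (log2 -1.13, adjusted p = 1.97e-05). Timp1 was the only gene of this list called between genotypes, lower in PAD2KO by 0.54 in batch 2 (SE 0.118, adjusted p = 0.00753).

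Regulators of collagen transcription went both ways. Of 21 genes 17 were tested, and in WT 3 were called higher and 5 lower, with 3 in each direction in PAD2KO. Among all genes, 22.3% were called in WT and 18.7% in PAD2KO, in either direction. Tgfb3, a ligand of the TGF-β pathway that induces collagen genes, fell from 410 ± 48.7 to 111 ± 16.8 CPM in WT (log2 -1.87, adjusted p = 2.75e-12). Ccn2, a matrix protein induced by that pathway, fell from 31.5 ± 3.59 to 10.2 ± 1.96 CPM in WT (log2 -1.61, adjusted p = 2.07e-05). It was not called between batches in PAD2KO (log2 -0.29, adjusted p = 0.476). Prrx1, a homeobox factor of mesenchymal cells, rose from 92.6 ± 6.89 to 190 ± 14.9 CPM (log2 1.04, adjusted p = 1.05e-07). Ccn2 was the only one called between genotypes, higher in PAD2KO by 1.16 in batch 2 (SE 0.296, adjusted p = 0.0250).

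**Figure D5:**
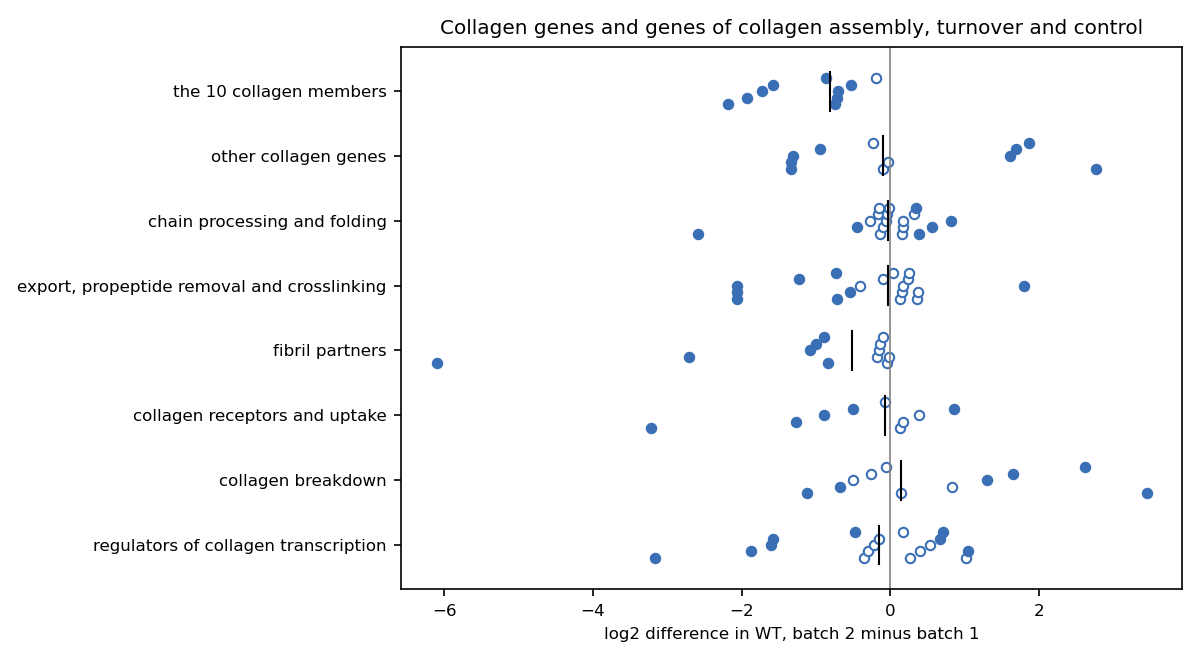
Log2 difference between batches in WT (horizontal axis: batch 2 minus batch 1) of 106 tested genes, in rows by role. Filled points are called, black lines are medians, and Col28a1, with 0 counts in WT of batch 2, is not drawn. The members lie at or left of -0.20 and their median is -0.80, while the rows of other genes reach to both sides of 0 except fibril partners.

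Across the 11 libraries, which share the step between batches, the genes outside the collagen family whose log2 CPM ran most like that of 4 members were as follows. For Col1a1 they were Lrp4, Lbh and Boc, with Pearson's r of 0.981, 0.979 and 0.974. For Col3a1 they were Adamts15, Olfml3 and Igf2r, at 0.991, 0.991 and 0.989. For Col6a1 they were Tnfrsf1a, Thbs3 and Mgp, at 0.963, 0.953 and 0.951, and for Col12a1 Tns3, Flna and Prelp, at 0.957, 0.956 and 0.955. After the mean of each genotype and batch was removed, r with Col3a1 was 0.347 for Adamts15, 0.324 for Olfml3 and 0.872 for Igf2r. For Col6a1 the within-group values were 0.960, 0.960 and 0.895, and for Col1a1 0.749, 0.661 and 0.666. These are descriptions over the same libraries.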

How the data were processed

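RNA-seq of 11 libraries was deposited as a single table. Per the file headers, it holds estimated counts, TPM and effective gene lengths for each library, and the authors had not scaled the deposited estimated counts between libraries. The deposited TPM values are abundances over all table entries, scaled to length and to the same total in each library. The submitters' processing notes name Salmon 1.3.2, fastp, DESeq2 1.46.0 and the build GRCm39. Their roles, the annotation and the use of strand are not given in the sources used here. Per the labels' protocols, a SMARTer kit for mRNA was used. No molecular identifiers are named, so values cover reads and not molecules. Estimated counts share out reads that match several genes, so chains with similar sequence may affect each other.

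Of 56065 entries, 23133 had no gene symbol and took 3.80% to 6.40% of counts. They were left out. The others were summed to 32868 symbols and rounded to whole numbers. Rn18s, a ribosomal RNA gene, took 8.52% to 12.1% of named counts. Totals of 962633 to 1421243 put the limit that 0 counts allow (3 counts) at 2.11 to 3.12 CPM, and such limits cover counting error only. All columns belonged to a library.

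The main test was that of edgeR 4.0.16, run in R 4.3.3 (TMM, filterByExpr on genotype with a minimum count of 10, robust quasi-likelihood fit) and called at an adjusted p under 0.05 (Benjamini-Hochberg over 9932 genes). Genotype was fitted with batch as a term, and a fit with 1 mean per genotype and batch gave the comparisons within batches and genotypes and the difference of differences. Intervals are 1.96 SE, a normal multiplier, so those called 95% are approximate and narrower than the quasi-likelihood test implies. They can leave out 0 where that test does not pass, as for Col1a1 between genotypes in batch 2 (0.00787 to 0.647, unadjusted p = 0.0620 by edgeR). Ratios of TPM were compared by exact two-sided permutation over 200 splits within genotypes or batches, adjusted over 8 tests. The fits were tested on simulated data. Alternatives were other scalings, DESeq2 1.42.0, no filter, length offsets, Rn18s left out, each library left out, a replicate block, and plain library totals, the last added after seeing the data.

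The members and lists were chosen with earlier results of these data known. Named outside the members are collagen genes called in both batch comparisons (up to 4 by size) or between genotypes, the 3 genes of each list with the smallest p between batches in WT and those called between genotypes, and the 3 genes most correlated with 4 members. WT 5 and WT 6 were the most alike pair within a group, at 1.54 in chi-square over its degrees of freedom (2.35 to 3.77 for other pairs). The excess over 1 exceeds counting error, so both were kept. That check cannot tell separate animals or cultures from repeat preparations of the same one. Gene order came from a reference list of protein-coding genes and promoters from RefSeq on GRCm38, and no other coordinates were used.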

Additional observations from a re-analysis of the deposited data

Results flagged for a closer look

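The genotype difference of Col5a1 was not the same in both batches: the value in batch 2 exceeded that in batch 1 by 0.743805 on the log2 scale, and the test of that difference passed the threshold (adjusted p = 0.0182 by edgeR). Col5a2 differed in the same way by 0.829551 (adjusted p = 0.00151). For both, PAD2KO was below WT on average in batch 1 and above it in batch 2. In 40 checks of the highest and lowest library of each genotype, 1 pair for each member, none was flagged. Both batches were pooled in these checks, so the step between batches widened the range each library was judged against. They therefore say little about a library within its batch, such as WT 7 for Col6a1 (251 CPM, against 150 and 157 CPM in WT 5 and WT 6).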

How the results depend on the processing

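The falls between batches kept most of their calls. In WT, 7 to 9 members were called when each library was left out, and 8 or 9 under the other settings. In PAD2KO the numbers were 5 to 7 in both cases. Col1a1, Col1a2, Col3a1, Col5a2 and Col14a1 were called lower in both genotypes in all 18 alternatives. Col6a1 in WT was called in 11 of 18 and Col6a2 in PAD2KO in 8 of 18. Scaling moved the median of all genes by less than 0.1 in all comparisons. Small counts limit Col6a3 and Col14a1.

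Between genotypes, with batch as a term, the number called was 0 to 1 when each library was left out, with Col3a1 called without WT 1, and 1 without the filter on low counts (Col3a1, adjusted p = 0.00362). In batch 2 it was 0 to 3, with 0 without PAD2KO 7. The difference between batches in the genotype effect was called for 0 to 3 members, with 0 without PAD2KO 7 and 1 (Col5a2) with length offsets, without WT 5, without PAD2KO 1 or without PAD2KO 3. With 1 PAD2KO library left in batch 2, that library is assumed to vary like the other groups. The cause of these changes was not tested.

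Replicate numbers shared by WT and PAD2KO (1, 3, 6 and 7) were fitted as a replicate block on 8 libraries. Deviations of same-numbered libraries had correlations of 0.0487, 0.0104, 0.0297 and 0.00152, which gave no sign of pairing. Groups were small and libraries with different numbers were not set beside these, so the correlations cannot settle whether the numbers mark pairs. With the replicate block, 2 members were called in batch 2, where Col5a1 was at 0.43 (adjusted p = 0.125), and 2 for the difference between batches, Col5a2 and Col1a1 (0.65, adjusted p = 0.0380), with Col5a1 at 0.77 (adjusted p = 0.0623). Signs that changed with the block were those of Col1a1 (0.00858) and Col6a2 (0.0108) over both batches, Col6a1 (0.0648) and Col6a2 (0.0283) in batch 1, Col6a2 in batch 2 (-0.0231), and Col6a1 (-0.211) and Col6a2 (-0.0514) for the difference between batches.

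Other signs that changed belonged to values near 0 or to Col6a3. Over both batches Col1a1, at -0.000812, became 8.38e-05 with RLE size factors, 0.000926 by DESeq2, 0.0196 without a filter, 0.0201 with length offsets, 0.00239 without Rn18s, 0.0126 with plain library totals and 0.000936 without a batch term. Without a batch term Col5a2 became -0.00306, Col6a1 0.00636 and Col6a2 0.00753. Without a filter Col6a1 in batch 2 became 0.00644. With length offsets Col6a3 became -0.168 over both batches, -0.429 in batch 2, -0.612 between batches in PAD2KO and -0.469 for the difference between batches, Col6a2 in batch 2 became -0.0225 and Col5a1 between batches in PAD2KO -0.0756. With plain library totals Col5a1 and Col6a3 between batches in PAD2KO became -0.0328 and -0.0245.

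Values whose sign changed when each library was left out had these ranges. Over both batches they were -0.103 to 0.103 for Col1a1, -0.0636 to 0.130 for Col5a1, -0.0934 to 0.114 for Col5a2, -0.0952 to 0.0592 for Col6a1, -0.147 to 0.0608 for Col6a2 and -0.0559 to 0.106 for Col12a1. In batch 1 they were -0.154 to 0.0105 for Col1a2, -0.152 to 0.0540 for Col6a1 and -0.175 to 0.410 for Col6a3. In batch 2 they were -0.207 to 0.231 for Col6a1, -0.247 to 0.388 for Col6a2 and -0.0859 to 0.695 for Col6a3. Between batches they were -0.602 to 0.173 for Col6a3 in WT, and -0.125 to 0.120 for Col5a1 and -0.206 to 0.194 for Col6a3 in PAD2KO. For the difference between batches they were -0.164 to 0.275 for Col6a1, -0.154 to 0.482 for Col6a2 and -0.164 to 0.618 for Col6a3.

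The ratio of Col5a1 to Col5a2 was higher in batch 2 by 0.888 to 0.988 and that of Col6a1 to Col6a2 by 0.230 to 0.388 when each library was left out. Most of these omissions left too few splits, or too large a p, to pass the adjusted threshold. The ratio of Col6a3 to Col6a1 ranged from -0.175 to 0.566 between batches and from -0.319 to 0.422 between genotypes, and Col6a1 to Col6a2 between genotypes from -0.0608 to 0.0974.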
